A study of Mus musculus with 6 samples.

Results

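In mouse embryonic stem (ES) cells, 1350 windows of 1 kb held a local maximum of the histone variant H2A.B together with reads of 5-methylcytosine (5mC). They were chosen on 4 conditions out of 2272168 windows on chromosomes 1 to 19 that held at least 1 read. A window had at least 10 H2A.B reads and at least 4 times the mean per kb of its 100 kb window, which made it an H2A.B maximum. It had 0 reads in both IgG libraries, and its 3 5mC libraries together held at least 5 reads. The members are 0.0594% of all windows, and the H2A.B maxima, with no condition on IgG or 5mC, are 0.32%. Reads that shared a chromosome, strand and 5′ position counted as 1, and coordinates are those of build mm9, counted from 1. The H2A.B, 5mC and IgG counts of the members were used to choose them and are given as a description, with no test.

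The cells were ES cells of the C57Bl/6 strain, kept in leukaemia inhibitory factor (LIF) without feeder cells, and no treatment or genotype set the 6 libraries apart. H2A.B was recovered by chromatin immunoprecipitation (ChIP) with a rabbit antibody made by the submitters (1 library), and 5mC by methylated DNA immunoprecipitation (MeDIP) with a mouse monoclonal antibody (3 libraries, replicates 1 to 3). Each assay had 1 library with IgG, a non-specific antibody that gives the background. No label ties the 5mC libraries to separate cultures, so any spread or p-value among them measures differences between libraries that may be technical. The 2 IgG libraries are IgG by title and antibody label, although their description names the H2A.B antibody.

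H2A.B, a truncated relative of canonical H2A, lacks the usual carboxy-terminal tail, wraps less DNA and forms less compact nucleosomes. It is known mainly from the testis. 5mC in mammals lies mostly at CpG sites, is absent from most CpG-rich promoters and covers silenced repeats, imprinted regions and gene bodies. The antibody of a MeDIP assay recovers single-stranded fragments, and recovers those with several methylated CpG sites best, so its reads depend on CpG density as well as on methylation.

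On chromosomes 1 to 19 the libraries held 7690224 distinct reads of H2A.B, 1346417, 1839684 and 774788 of 5mC replicates 1, 2 and 3, 520319 of IgG ChIP and 121384 of IgG MeDIP. A 1 kb window thus held on average 3.38 reads of H2A.B and 0.593, 0.81 and 0.341 of the 5mC replicates, against 0.229 of IgG ChIP and 0.0534 of IgG MeDIP. H2A.B and 5mC replicate 1 shared a flow cell, a lane and a read length of 42 bp. The other 4 libraries came from another flow cell with reads of 50 bp, replicate 2 in the lane of IgG MeDIP and replicate 3 in the lane of IgG ChIP. For H2A.B against IgG ChIP, antibody and sequencing run cannot be told apart. The same holds for 5mC replicate 1 against IgG MeDIP. Replicate and sequencing run cannot be told apart for replicate 1 against replicates 2 and 3.

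Of 7281 H2A.B maxima, 4156 had no IgG ChIP read and 3407 had no read of either IgG. Among these 3407, the 1350 members had at least 5 5mC reads, 1694 windows had 1 to 4 and 363 had none. The members made up 39.6% of the 3407 (exact 95% interval 38% to 41.3%), against a background of 5.53% with at least 5 5mC reads among windows with both IgG at 0 that were no H2A.B maximum. All intervals cover counting error only, since reads amplified by PCR without molecular identifiers are not independent molecules. With 1 5mC library left out and the minimum of 5 kept, the number of members was 664 without replicate 1, 805 without replicate 2 and 1170 without replicate 3.

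The members held a median of 16 H2A.B reads, with a middle range of 12 to 23, a lowest count of 10 and a highest of 314. Their H2A.B count was a median 5.1 times the mean of the 100 kb window, and 55.7 times at most. The summed 5mC count had a median of 9, a middle range of 6 to 15 and a highest value of 115. The median member had 4 reads of replicate 1, 3 of replicate 2 and 1 of replicate 3. H2A.B counts were lower in the maxima with fewer than 5 5mC reads, with a median of 13 where 1 to 4 were present and 11 where there was none. Across the 1350 members the rank correlation between H2A.B and summed 5mC was weak (Spearman's rho 0.167). It was 0.152, -0.0117 and 0.19 for replicates 1, 2 and 3, over points that share their libraries and local mappability. The rule's minimums of 10 H2A.B and 5 5mC reads cut off the lower range of both counts, so these values describe the members only.

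**Figure D1:**
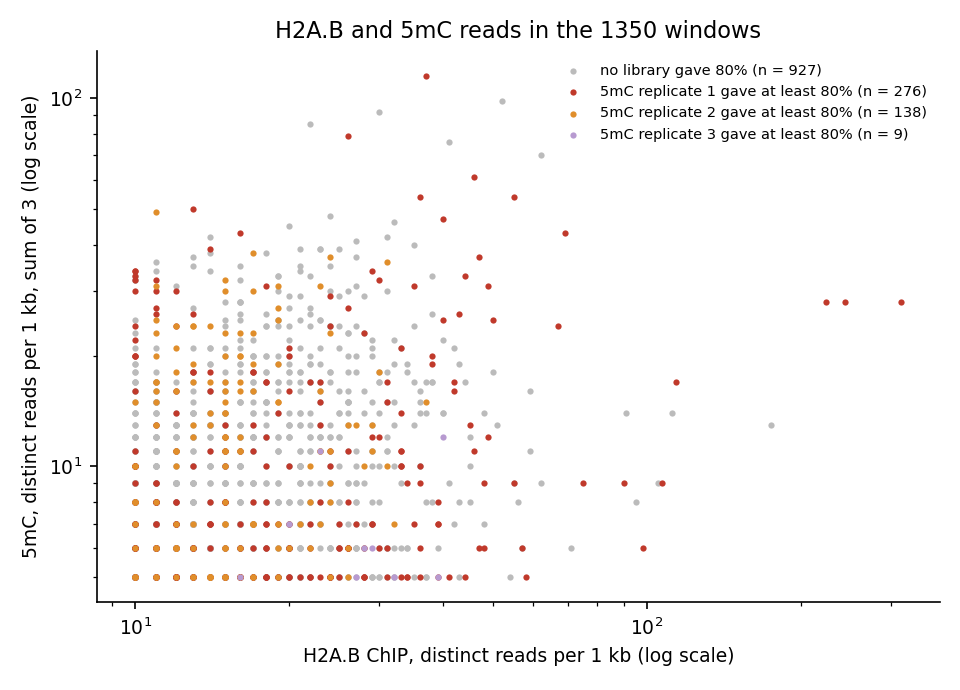
Distinct H2A.B reads (x axis) against the summed distinct 5mC reads (y axis), both per 1 kb on log scales, with 1 point per member coloured by the 5mC library that gave at least 80% of its reads. Most points lie near the thresholds of 10 and 5, and the 3 members with the most H2A.B reads, at the far right, hold 28 5mC reads each.

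The members with the most 5mC reads were not those with the most H2A.B. No window was in both lists of 10. The fullest in 5mC was chr7:7230001-7231000, with 93, 21 and 1 reads in replicates 1, 2 and 3 and 37 of H2A.B. It was followed by chr18:76266001-76267000 with 69, 27 and 2 5mC reads and 52 of H2A.B, and by chr13:120277001-120278000 with 62, 28 and 2 5mC reads and 30 of H2A.B. Replicate 1 gave the highest count in all 10 of these windows, and replicate 3 gave 5 reads at most.

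The fourth was chr10:121014001-121015000, with 58, 27 and 0 reads of replicates 1, 2 and 3. chr16:31162001-31163000 held 64, 10 and 5, and chr10:80641001-80642000 held 52, 21 and 3. The seventh, chr2:173595001-173596000, held 54, 14 and 2 and had the highest H2A.B count of the 10, at 62. Replicate 2 was lower in the last 3 of the list. It had 6 reads at chr17:8149001-8150000, 2 at chr7:4707001-4708000 and 0 at chr8:36197001-36198000, where replicate 1 had 52, 51 and 52.

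The window chr8:36197001-36198000 was narrow. Its 55 H2A.B reads had 5′ positions with a standard deviation of 25.6 bp, against a median of 217 bp over the members. The medians of its H2A.B and 5mC positions lay 0.5 bp apart. The 1 kb windows on either side held 11 reads of IgG ChIP and 18 of IgG MeDIP, although the window itself held none, as the rule required.

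The highest H2A.B count, 314 reads or 41.4 times the 100 kb mean, was at chr11:88943001-88944000, with 24, 1 and 3 5mC reads. chr3:59849001-59850000 held 244 H2A.B reads, 55.7 times its 100 kb mean, and 26, 0 and 2 5mC reads. chr5:104760001-104761000 held 224 H2A.B reads and 26, 2 and 0 5mC reads. In all 3 windows replicate 1 gave over 80% of the 5mC reads, and each of the other replicates gave 3 reads or fewer. The next were chr16:3236001-3237000 with 175 H2A.B reads and 7, 2 and 4 of 5mC, and chr13:74668001-74669000 with 114 and 16, 0 and 1. The other 5 held 95 to 112 H2A.B reads and 6 to 14 5mC reads in all. They include the neighbour chr16:3237001-3238000 and 2 adjacent windows on chromosome 5 described with the runs.

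Some members held reads of all 3 5mC libraries in number. Ranked by the lowest of their 3 counts, the first was chr16:10087001-10088000, with 9, 9 and 8 5mC reads and 18 of H2A.B. chr12:18140001-18141000 held 9, 24 and 6, and chr1:166260001-166261000 held 6, 9 and 6. The fourth of this list was chr16:31162001-31163000, also among the fullest in 5mC. chr9:78158001-78159000 held 16, 24 and 5, chr7:148953001-148954000 held 5, 27 and 9, and chr14:100716001-100717000 held 5, 26 and 6. The last 3 were chr4:91646001-91647000 with 6, 12 and 5, chr9:11605001-11606000 with 4, 40 and 5, and chr19:54554001-54555000 with 6, 28 and 4. In this list replicate 2 most often gave the highest count, and H2A.B stayed between 10 and 27 reads.

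**Figure D2:**
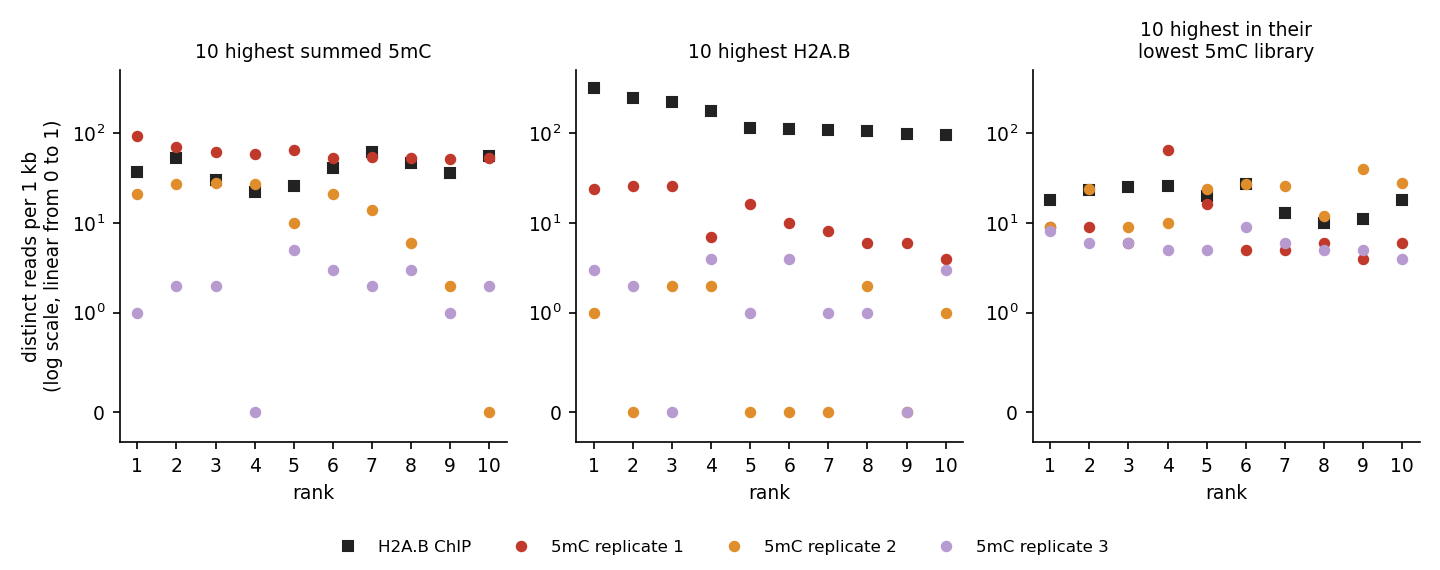
Distinct reads per 1 kb (y axis, logarithmic above 1 and linear from 0 to 1) of H2A.B and the 3 5mC replicates in the 10 members ranked first (x axis) by summed 5mC, by H2A.B and by the lowest of the 3 5mC counts. Replicate 1 lies above the other 5mC libraries in every window of the left and middle panels, and in the 10 windows of the right panel all 3 lie at 4 or more; equal counts overlap.

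The sum of 5mC reads hid large differences between its libraries. Replicate 1 gave 49.2% of the 16372 5mC reads in the members (exact 95% interval 48.4% to 50%), replicate 2 42% (41.2% to 42.8%) and replicate 3 8.8% (8.37% to 9.25%). Over chromosomes 1 to 19 they gave 34%, 46.4% and 19.6% of the 5mC reads, so their shares in the members were 1.45, 0.904 and 0.45 times those in the genome. With all deposited reads in place of distinct positions the rule chose 1857 windows, 1293 of them members. These ratios were then 1.1, 0.973 and 0.837, much nearer to 1. Windows that passed the same 5mC and IgG conditions without being an H2A.B maximum had ratios of 1.39, 0.909 and 0.537, close to those of the members. With no condition on IgG the ratios at H2A.B maxima were 0.982, 1.14 and 0.691, so the lead of replicate 1 was absent there.

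A read of replicate 1 was present in 94.4% of the members, of replicate 2 in 89.3% and of replicate 3 in 57.8%. All 3 libraries had a read in 654 members, 2 libraries in 602 and 1 library alone in 94. At least 2 reads from each library were found in 194 members, at least 3 in 69 and at least 5 in 8. A single library gave at least 80% of the reads in 423 members: replicate 1 in 276, replicate 2 in 138 and replicate 3 in 9.

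The members sit on a continuous scale of H2A.B counts. Among windows with both IgG at 0, the share with at least 5 5mC reads was 1.88% where H2A.B had 0 reads, 4.86% at 3 to 4 and 11.6% at 5 to 9. It was 28.4% at 10 to 14 H2A.B reads, 45.5% at 15 to 19, 55.9% at 20 to 29 and 63.1% at 30 or more. At equal H2A.B counts the share differed little between maxima and windows that were not 4 times above their surroundings. At 10 to 14 reads the shares were 29.4% (27.3% to 31.5%) and 28.4% (27.9% to 28.9%). At 15 to 19 they were 45.7% (42.1% to 49.4%) and 45.4% (43.4% to 47.3%), and at 20 to 29 they were 56.6% (52.2% to 60.8%) and 54.8% (49.5% to 60.1%). The exact 95% intervals overlapped in each class.

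The IgG libraries followed the same scale from 1 to 2 H2A.B reads upward. With no IgG condition, and outside 100 kb windows of extreme coverage, windows with 30 or more H2A.B reads held 20.4 ± 6.41 (SD, n = 3) times the genome mean of 5mC reads. IgG MeDIP was at 42.2 times its own mean there (exact 95% interval 40.5 to 44) and IgG ChIP at 13.2 times (12.8 to 13.7). At 15 to 19 H2A.B reads the values were 5.69 ± 2.65 (SD, n = 3) for 5mC, 10 for IgG MeDIP and 2.75 for IgG ChIP. At 1 to 2 H2A.B reads all were below 1, with 0.65 ± 0.137 (SD, n = 3) for 5mC, 0.571 for IgG MeDIP and 0.823 for IgG ChIP. Windows with 0 H2A.B reads were above this in all 5 libraries, with IgG ChIP at 1.31 and 5mC replicate 3 at 1.19. In every class from 10 to 14 H2A.B reads upward, the IgG MeDIP value lay above that of each 5mC library. At 10 to 14 reads it was 3.83, against 3.48, 3.38 and 1.81 for 5mC replicates 1, 2 and 3.

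**Figure D3:**
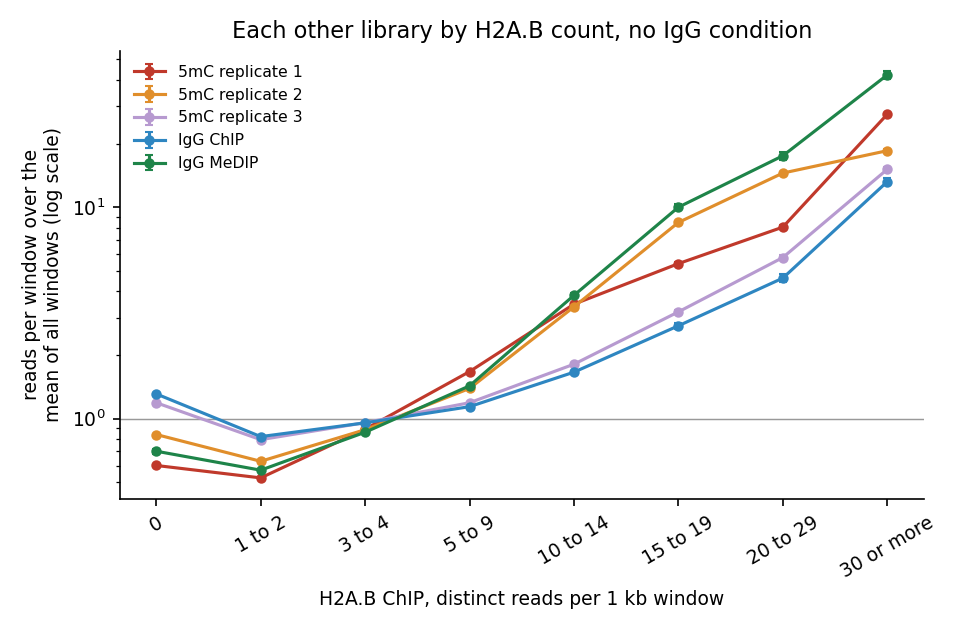
Mean reads per 1 kb window over the mean of all kept windows (y axis, log scale) for the 3 5mC and 2 IgG libraries, by the number of H2A.B reads in the window (x axis), with exact 95% counting intervals. All 5 lines climb from 5 to 9 H2A.B reads onward, and IgG MeDIP is the highest from 10 to 14 reads onward, reaching 42.2 at 30 or more.

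The condition of 0 IgG reads bounded the background of the members only loosely. A count of 0 allows up to 3 reads, which is 5.77 CPM (reads scaled to the library's total on chromosomes 1 to 19) in IgG ChIP and 24.7 CPM in IgG MeDIP. The members averaged 2.58 CPM of H2A.B and 4.43, 2.77 and 1.38 CPM of 5mC replicates 1, 2 and 3. The H2A.B level exceeded the IgG ChIP limit in 46 members, those with 45 reads or more, and the mean 5mC level exceeded the IgG MeDIP limit in 1. At the CPM of the 5mC libraries, IgG MeDIP would have held 0.347 reads per member, or 469 over all of them. At the CPM of H2A.B, IgG ChIP would have held 1.34 reads per member. By the limit of 3 reads, a count of 0 thus did not exclude an IgG level equal to the antibody's in most members.

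Before the IgG condition, 4414 H2A.B maxima had at least 5 5mC reads, and 3064 of them had an IgG read. Over the 4414, IgG MeDIP stood at 2.27, 1.95 and 3.22 times the CPM of 5mC replicates 1, 2 and 3 (mean 2.48 ± 0.662, SD, n = 3). With all deposited reads this mean was 1.27. IgG ChIP stood at 1.36 times the CPM of H2A.B (exact 95% interval 1.34 to 1.39). The fullest 20 windows held 35.6% of the IgG MeDIP reads. Without 100 kb windows of extreme coverage, 4308 windows were left, IgG MeDIP was at 1.97 ± 0.807 (SD, n = 3) times 5mC, and the IgG ChIP ratio was below 1, at 0.886 (0.864 to 0.909). Of the members, 1348 of 1350 lie outside those regions.

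5mC was also read in a library that had no part in the choice. Windows were chosen by the H2A.B and IgG conditions and by at least 5 reads in 2 of the 5mC libraries, and the remaining library was compared with the flanks 2 to 10 kb away. Replicate 1 was at 8.1 times its flanks (exact 95% interval 7.84 to 8.37) in 664 windows, replicate 2 at 5.7 times (5.53 to 5.88) in 805 and replicate 3 at 2.74 times (2.57 to 2.91) in 1170. The mean was 5.52 ± 2.69 (SD, n = 3). Replicate 1 was sequenced in the lane of H2A.B, which chose the windows, and the effect of this was not tested. The library left out had a read in 88.7%, 82% and 51.3% of these windows. By the same measure, windows that were no H2A.B maximum gave 2.46, 1.89 and 1.27 (mean 1.88 ± 0.595, SD, n = 3).

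Each library was higher at the maxima, in 3 of 3 libraries, by 1.47 ± 0.32 on the log2 scale (SD, n = 3). The exact paired permutation test (two-sided p = 0.25) could not decide on a difference, since 3 pairs allow no smaller p. These windows were split by the H2A.B condition of the rule. Limited to 10 to 29 H2A.B reads, the maxima were at 5.63 ± 2.73 times their flanks and the other windows at 1.97 ± 0.569 (SD, n = 3). By construction, windows that are no maximum have H2A.B flanks nearer to their own count. H2A.B counts within 10 to 29 reads were not matched either. With both IgG at 0, 1882, 728 and 532 maxima had 10 to 14, 15 to 19 and 20 to 29 reads. The other windows numbered 32547, 2547 and 354, so high counts were rarer among them. The effect of this on the values was not tested. In reads per window the same classes held 4.75, 5.03 and 0.837 at maxima and 3.66, 2.77 and 0.605 elsewhere. The difference was 0.57 ± 0.26 on the log2 scale (SD, n = 3; exact paired permutation test, two-sided p = 0.25, again the smallest possible). With no IgG condition, the library left out was at 10.8, 14.9 and 7.86 times its flanks, and IgG MeDIP in the same windows was at 15.2, 14.5 and 14.6 times.

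The 5mC signal of the members extended into the next window. In the 1 kb on either side, 5mC replicates 1, 2 and 3 were at 2.87, 2.03 and 1.58 times their level 11 to 50 kb away (mean 2.16 ± 0.655, SD, n = 3). At H2A.B maxima with 1 to 4 5mC reads the mean was 1.21 ± 0.12 (SD, n = 3), and at those with no 5mC read 1 ± 0.0295 (SD, n = 3). H2A.B beside the members was at 1.91 times its far level. Both IgG libraries were also raised there, IgG MeDIP to 2.24 times (exact 95% interval 1.98 to 2.52) and IgG ChIP to 1.36 times (1.27 to 1.46). Beside maxima with no 5mC read they were at 0.766 (0.446 to 1.23) and 1.19 (1.01 to 1.39). An IgG ChIP read lay within 1 kb of 38.7% of the members and an IgG MeDIP read within 1 kb of 12.3%. By 5 to 10 kb all 6 libraries were within 1.04 to 1.09 times their far level. The part of the IgG signal in the 5mC and H2A.B counts was not tested.

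**Figure D4:**
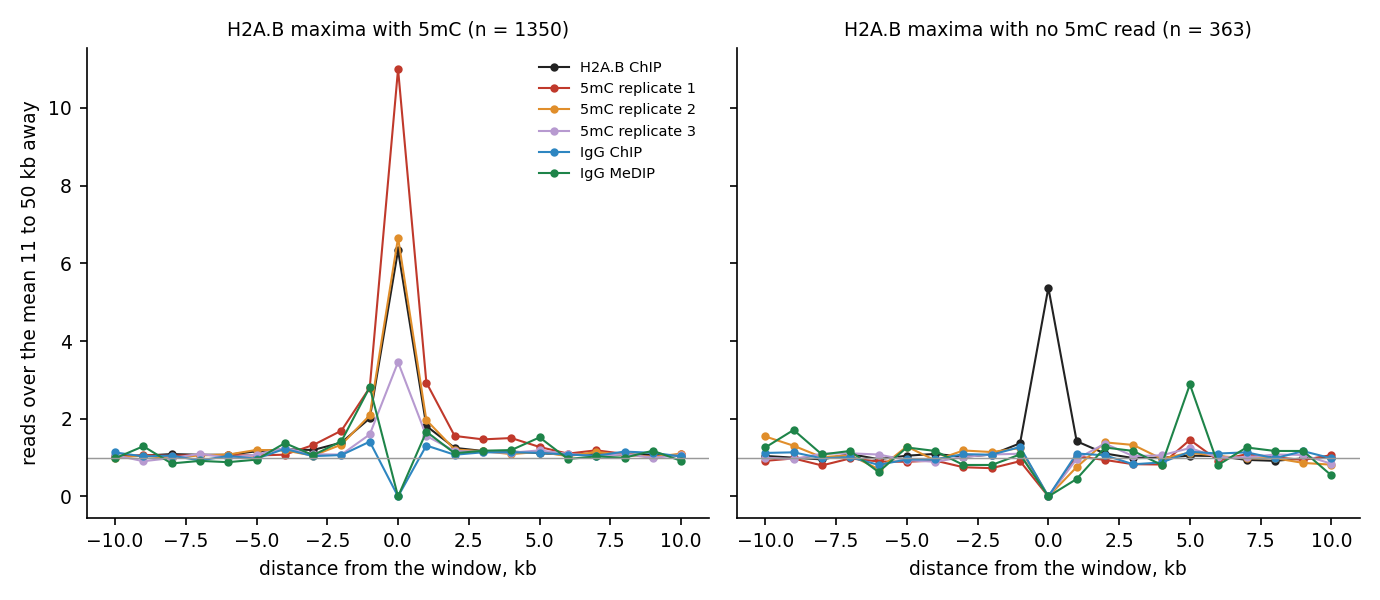
Reads per kb over the mean 11 to 50 kb away (y axis) by distance from the window in kb (x axis), for the members (left) and for H2A.B maxima with no 5mC read (right), with 1 line per library. At distance 0 both IgG libraries are at 0 in both panels, and 5mC is at 0 in the right panel, because the rule chose the windows so; beside the members, IgG MeDIP and the 5mC libraries stand above 1.

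The place of the reads within the 1 kb was described without comparison windows, and medians within 1 kb lie near each other in any case. The median distance between the median H2A.B position and the median 5mC position was 81.2 bp, within 100 bp in 793 members (58.7%) and over 300 bp in 95 (7.04%). The fullest 200 bp held a median 54.7% of the H2A.B reads and 64.5% of the 5mC reads. The 5′ positions had a median standard deviation of 217 bp for H2A.B and 184 bp for 5mC. At maxima with no 5mC read the H2A.B positions were spread slightly wider, at 242 bp.

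Reads from either end of a fragment place minus-strand 5′ ends downstream of plus-strand 5′ ends. In the members the mean minus-strand position of H2A.B lay a median 43.4 bp downstream (95% interval of the median from order statistics, 38.3 to 50.8 bp) over the 1226 windows with at least 3 reads on each strand. Replicate 1 of 5mC gave 45.1 bp (28.9 to 66.7) over 156 windows. Replicate 2 gave -81.3 bp (-186 to -0.729) over only 24 windows, the opposite order, and only 6 windows had enough reads of replicate 3. Opposite-strand reads within 500 bp of each other were paired, and the share of pairs with the minus-strand read downstream was averaged over windows. It was 59.9% for H2A.B (1341 windows) and 66.1%, 48.8% and 56.7% for replicates 1, 2 and 3 (707, 282 and 111 windows). The share for replicates 1 and 3 was thus on the same side of an even split as that of H2A.B, and the share for replicate 2 was not. At maxima with 1 to 4 5mC reads the shares of replicates 1, 2 and 3 were 67.2%, 44% and 47.9% (203, 58 and 64 windows). The side on which replicate 3 lay thus differed between these sets. At maxima with 1 to 4 5mC reads, the H2A.B offset was 40.5 bp (32.4 to 47.7 bp), near that of the members. At maxima with no 5mC read it was 28.9 bp (14.1 to 50.5 bp).

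**Figure D5:**
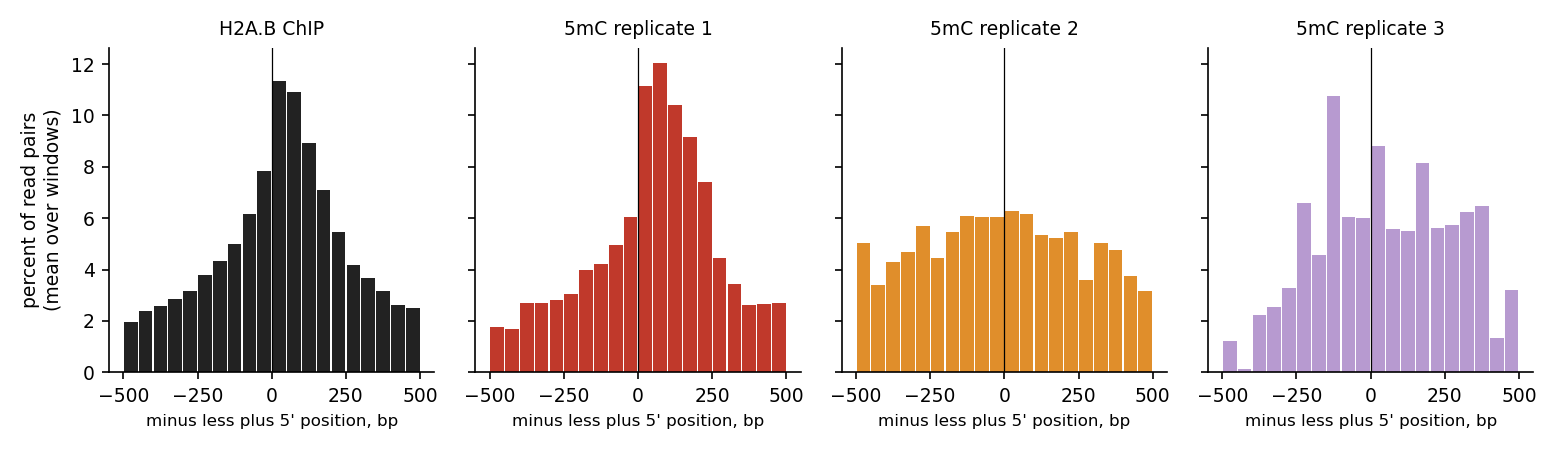
Share of opposite-strand read pairs (y axis, percent, mean over members) by the minus-strand less the plus-strand 5′ position in bp (x axis), for H2A.B and each 5mC replicate. H2A.B and replicate 1 peak just right of 0, replicate 2 is nearly flat, and replicate 3 is uneven, with 111 members behind it against 1341 for H2A.B.

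Some 5mC reads began at the very base and strand where an H2A.B read began. In the members this held for 6.8% of the positions of replicate 1 (exact 95% interval 6.26% to 7.38%), 2.47% of replicate 2 (2.12% to 2.87%) and 2.57% of replicate 3 (1.81% to 3.52%). H2A.B occupied 1.24%, 0.946% and 1.15% of the stranded positions of the windows, weighted by each library's reads, so sharing was 5.49, 2.61 and 2.22 times that level. In windows with 5mC that were no H2A.B maximum the ratios were 2.23, 1.74 and 1.74. At H2A.B maxima with 1 to 4 5mC reads they were 3.96, 1.06 and 2.38, so that for replicate 3 the ratio was no lower there than in the members. The mean share over the replicates was 3.95% ± 2.47 (SD, n = 3). Reads clump within a window, so a ratio above 1 does not by itself show shared molecules. Without the shared positions 1312 members were left.

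The rule counted each position once. The members held 1.19 deposited reads per position of H2A.B and 1.27, 1.46 and 1.92 of 5mC replicates 1, 2 and 3. Over chromosomes 1 to 19 the values were 1.15 for H2A.B and 2.56, 2.14 and 1.92 for 5mC. Windows with 5mC that were no H2A.B maximum held 1.05 of H2A.B and 1.23, 1.35 and 1.68 of 5mC. H2A.B maxima with 1 to 4 5mC reads held 1.07 of H2A.B and 1.16, 1.33 and 1.45 of 5mC. Copies were thus fewer in the members than in the genome for replicates 1 and 2. They were more than in both of these sets of windows for H2A.B and each 5mC replicate.

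The members were scattered over all 19 chromosomes. Their density ran from 0.372 per 1000 windows on chromosome 11 (exact 95% interval 0.269 to 0.501) to 0.782 on chromosome 18 (0.604 to 0.997). Chromosome 11 also had the fewest H2A.B maxima without IgG reads, at 0.831 per 1000, and 44.8% of them were members. The members lay in 1278 windows of 100 kb, of which 1217 held 1 member, 54 held 2, 3 held 3 and 4 held 4. Adjacent members formed 28 runs of 2 and 1 run of 3, and 143 members lay beside another H2A.B maximum.

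The run of 3, on chromosome 5, held 112, 105 and 56 H2A.B reads at chr5:25322001-25323000, chr5:25323001-25324000 and chr5:25324001-25325000. Its 5mC counts in replicates 1, 2 and 3 were 10, 0 and 4 in the first window, 6, 2 and 1 in the second and 5, 1 and 2 in the third. H2A.B was thus 7.03 to 14.1 times the 100 kb mean across 3 kb, while 5mC stayed at 14 reads or fewer per window.

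The first of the 4 fullest 100 kb windows, chr7:7200001-7300000, held the member fullest in 5mC and 3 others. These were chr7:7250001-7251000 with 40 H2A.B reads and 45, 2 and 0 of 5mC, chr7:7252001-7253000 with 43 and 22, 4 and 0, and chr7:7253001-7254000 with 18 and 2, 2 and 1. Replicate 1 led in 3 of the 4 members. In chr7:66900001-67000000, which held 9 H2A.B maxima, the 4 members had 15 to 23 H2A.B reads and replicate 3 led in 2, with 9 reads at chr7:66931001-66932000 and 4 at chr7:66939001-66940000. In chr14:52000001-52100000 the members were 2 adjacent pairs with 12 to 23 H2A.B reads and 6 to 17 5mC reads. In chr18:37600001-37700000 they held 20 to 30 H2A.B reads and 5 to 17 5mC reads, with replicate 1 in the lead in all 4.

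Many windows lay at the thresholds. Exactly 10 H2A.B reads were held by 142 members, such as chr1:17113001-17114000 with 7 5mC reads, while 184 windows met all other conditions with 9, such as chr1:12160001-12161000, also with 7. In 170 members H2A.B was 4 to 4.2 times the 100 kb mean, and 186 windows fell just short at 3.8 to 4 times. Exactly 5 5mC reads were held by 221 members, and 290 H2A.B maxima had 4. Another 1014 windows met all other conditions but had exactly 1 IgG read. Among them was chr1:5062001-5063000, with 47 H2A.B reads and 162 5mC reads, a 5mC count above that of any member.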

How the data were processed

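Each deposited file lists aligned reads with chromosome, start, end, name, score and strand. The score column, deposited with 1 constant value, entered no count. Per the submitters' processing notes, the tools were FastQC and Bowtie and the build mm9. How the aligner was set, and how it handled multiply mapping reads, was not given in the sources used here. Fragments were 200 to 400 bp in ChIP (20 PCR cycles) and 100 to 400 bp in MeDIP (15 PCR cycles), per the labels' protocols.

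Reads were reduced to distinct 5′ positions and strands and counted in 1 kb windows with Python 3.11.15, numpy 2.4.6, pandas 2.3.3 and scipy 1.17.1. Removed were 9 lines without the tab format. From 5mC replicate 2, the 201263 reads also listed in IgG MeDIP and 2979 reads with a blank strand were removed. Some reads belonged to both groups, and 4178268 of the 4382222 reads of replicate 2 were used. None of the blank-strand reads lay on chromosomes 1 to 19. Shares have exact Clopper-Pearson and counts exact Poisson 95% intervals. A count of 0 was taken to allow 3. H2A.B and each IgG had 1 library, so no test between antibody and IgG was made. Regions of extreme coverage are 100 kb windows under 25% of the median mean CPM or over 10 times a library's median. Only the functions for counting and selection were tested on simulated data. The planted windows lay well above the minimums, with both IgG counts set to 0.

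Regions named are the 10 highest by summed 5mC, by H2A.B and by the lowest 5mC count, the longest run, the fullest 100 kb windows and examples at the thresholds. The window chr1:5062001-5063000 is such an example. The members and lists were chosen with earlier results of these data known. The classes by H2A.B count, the held-out values within them, the distances and the classes of library dominance were added after values were seen. The planned description of sequence and annotation was not made, since no mm9 reference was used here.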

Additional observations from a re-analysis of the deposited data

Results flagged for a closer look

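The 9 lines without the tab format, left out of all counts, lie at 1 place inside a member. The list of H2A.B held 1 of them and that of 5mC replicate 1 held 8, all between positions 150481211 and 150481342 of chromosome 7. Of the 8, 6 have the same coordinates, and the 8 are the last lines of their list. The member, chr7:150481001-150482000, held 26 H2A.B reads (7.85 times its 100 kb mean) and 26, 1 and 0 reads of 5mC replicates 1, 2 and 3 without these lines.

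After its position was seen, the order of reads in the lists was also examined. Consecutive reads of this member lay under 2000 lines apart 7 times in the H2A.B list, where evenly spread reads would give 0.14, and 5 times in that of replicate 1, where they would give 0.368. No other member with under 60 H2A.B reads had more than 2 such gaps in the H2A.B list. Relative to an even spread it ranked second of the 27 members with 2 or more. Over all members the H2A.B list had 217 such gaps against 188 for an even spread, and the list of replicate 1 had 67 against 64.6. How these lines and this order arose was not tested, and without this window 1349 members would be left.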

How the results depend on the processing

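Of 78 recomputed values, 55 were classed as the same and 23 as moved. Some of the 55 still differed widely. Members numbered 1857 with all deposited reads and 1993 with at least 3 5mC reads, against 1350. For the shares of 5mC reads relative to the genome, replicate 1 (1.45) was at 0.982 with no IgG condition. Replicate 3 (0.45) was at 0.837 with all deposited reads. The number of members (1350) was 464 with at least 20 H2A.B reads, 404 at 6 times the 100 kb mean, 628 with at least 10 5mC reads, 4414 with no IgG condition, and 664 to 1170 with 1 5mC library left out. The share of H2A.B maxima with 5mC (39.6%) was 43.3% with all deposited reads, 58.2% with at least 20 H2A.B reads, 47.5% at 6 times, 58.5% and 18.4% with at least 3 and 10 5mC reads, 60.6% with no IgG condition, and 19.5% to 34.3% with 1 library left out. The lists of replicates 2 and 3 consist of 4 and 3 sorted blocks. With only the first block of replicate 2 the share was 34.3%, and with only the first blocks of both, an alternative chosen after seeing the data, 32.2%. IgG ChIP to H2A.B before the IgG condition (1.36) was 1.16 with all reads, 0.886 without regions of extreme coverage, and 1.42 to 1.61 with 1 5mC library left out. IgG MeDIP to 5mC (2.48) was 1.27 with all reads. Apart from the rules that use fewer reads or stricter minimums by construction, the cause was not tested. No paired analysis was possible because H2A.B and each IgG had 1 library, apart from the comparison of window sets within the 3 5mC libraries. The depth of IgG MeDIP limits every statement on background.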
